A study of Mus musculus with 8 samples.

Results

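Genes of the mitochondrial protein import machinery were taken as all protein-coding genes whose GENCODE symbol begins with Timm or Tomm, after the Ensembl identifiers of the count table had been matched to the annotation. The rule used no measured value and found 26 genes of the 22430 listed, 10 Tomm and 16 Timm genes. RNA came from the brain hemispheres of male C57Bl/6JRj mice, with 4 young adults at 6 months of age (6m) and 4 aged mice at 24 months (24m), and with no transgene, mutation or treatment named for either age. Polyadenylated RNA of each animal made 1 library, read as counts per gene, with library totals of 63460940 to 103462414 counts. Of the 26 genes, 24 had between 316 and 20496 counts in every library, a depth at which counting error is small. Tomm20l had 12, 15, 6 and 8 counts at 6m and 5, 4, 1 and 0 at 24m, and it entered the test only through its 6m counts. Timm8a2 had 0, 1, 0 and 3 counts at 6m and 1, 1, 0 and 0 at 24m and was not tested, which left 25 tested genes.

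Nearly all mitochondrial proteins are made in the cytosol as precursors and pass into the organelle through translocases. The TOM complex of the outer membrane receives them through receptors and passes them through a channel. Behind it, the TIM23 complex takes proteins with a cleavable presequence across the inner membrane, pulled by a motor in the matrix, and the TIM22 complex inserts carrier proteins into that membrane. Small Tim chaperones in the intermembrane space shield hydrophobic precursors on the way. In brain, neurons depend on mitochondria in axons and synapses far from the cell body, and loss of the human counterpart of Timm8a1 causes a syndrome of deafness and dystonia.

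Most transcripts of both translocase systems were lower in the aged brain. By the edgeR quasi-likelihood test, 17 of the 25 tested genes were called lower at 24m and 2 were called higher, where a call needed an adjusted p (Benjamini-Hochberg, over all 16730 tested genes) no higher than 0.05 and a log2 fold change (log2FC) no smaller than 0.58 in size. Among all tested genes, 18.3% were called lower and 25.3% higher. The count is 16 of 24 without Tomm20l, which had to be higher at 6m to be tested. In 19 of the 24 genes other than Tomm20l every 24m library lay below every 6m library, against 26.8% of all tested genes, and in 2 every 24m library lay above, against 28.4%. The genes that rose were Tomm70a, a receptor of the outer membrane, and Timm29, a subunit of the TIM22 complex. The median log2FC of the 25 genes was -0.71, against -0.0034 over all tested genes. Summed over the 26 genes, expression was 2530, 2284, 2396 and 2672 CPM (counts scaled to a library size of 1e+06 with TMM factors) at 6m and 1882, 1419, 1426 and 1288 CPM at 24m. The sums of the aged animals thus lay below all those of the young adults. RNA of a whole hemisphere does not tell fewer cells of a type from less RNA per cell.

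**Figure D1:**
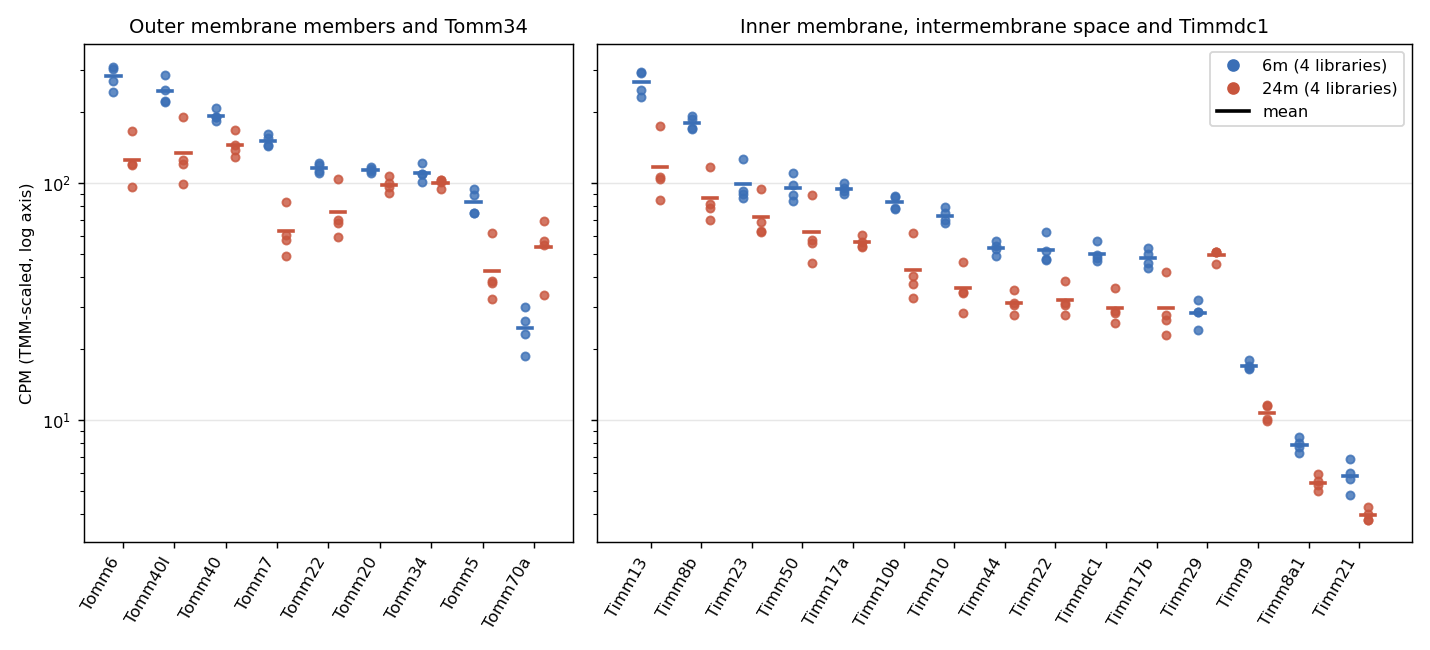
Level of each Timm and Tomm gene in every library, in CPM on a log axis, for 6m (blue) and 24m (red), with bars at the group means; Tomm20l and Timm8a2, both under 1 CPM, are left out. Red points lie under blue points for most genes, and Tomm70a and Timm29 show the opposite order.

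The length of a gene moved with its change, and the import genes have short coding sequences. Their median coding length was 502.5 bases, against 1335 bases over all tested genes with a coding length, and 23 of the 25 lay at or under that overall median. Over all tested genes, log2FC and coding length had a Spearman rho of 0.38 (16609 genes), and over the import genes a rho of 0.60 (25 genes). By exonic length, untranslated regions included, the contrast was smaller: the median was 4717 bases against 5768 over all tested genes, 17 of the 25 lay at or under the overall median, and rho was 0.43 for the import genes against 0.42 overall. These are descriptions across genes, which share libraries and are not independent. When all tested genes were split into 10 classes of rising coding length, the median log2FC of the shortest class was -0.68, and the 11 import genes in that class other than Tomm20l had a median of -0.96. Set against tested genes of their own length class, 17 of the 24 tested import genes other than Tomm20l lay below the class median and 9 below its lower quartile. The shortest class spanned 22 to 492 bases with a median of 367.5, and most of its import genes were shorter than that, down to 165 bases for Tomm7. The class is thus no close match in length for them, and the part of length within a class was not tested.

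Removing a trend over length from each library changed how many were called. Tomm20l stayed called lower throughout, but since it could be tested only by being higher at 6m it is left out of the following counts, which are of 24 genes. With a trend over exonic length removed, 14 were called lower and 2 higher, beside 17.2% and 21.3% of all tested genes. Tomm5, Tomm22 and Timm50 lost their calls there and Timm8a1 gained one. With a trend over the length of curated transcripts removed, 10 were called lower and 1 higher, beside 14.4% and 18.1%. Here 8 calls were lost, those of Tomm5, Tomm6, Tomm22, Timm9, Timm10b, Timm44, Timm50 and Timmdc1, and Tomm20 and Timm8a1 gained one. With a trend over coding length removed, 4 were called lower and 2 higher, beside 16.8% and 21.9%. Those 4 were Tomm40l, Timm44, Timm50 and Timmdc1, and the 2 were Tomm70a and Timm29. Scaling by library totals alone, which moved the median of all tested genes to 0.21, gave 8 lower and 2 higher beside 10.4% and 32.6%. The 8 were Tomm40l, Tomm5, Tomm6, Tomm7, Timm8b, Timm10, Timm10b and Timm13. Of the 24 genes, Tomm40l was called lower and Timm29 higher under each of these scalings.

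**Figure D2:**
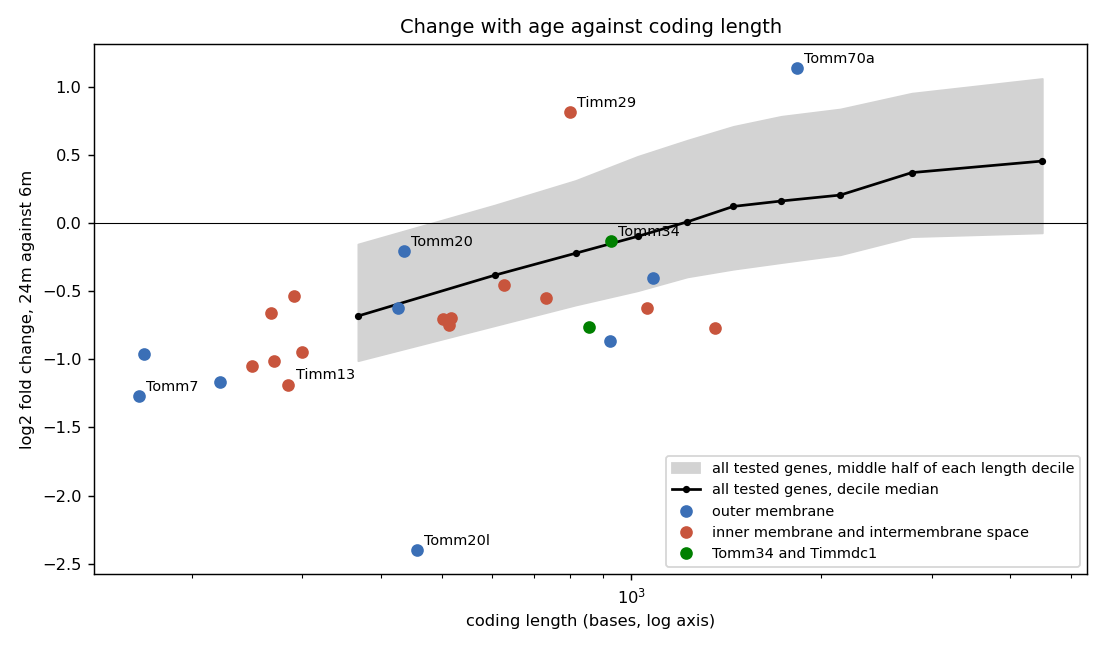
Log2FC at 24m against 6m plotted against coding length (bases, log axis); the black line joins the medians of all tested genes in 10 length classes, the grey band spans their quartiles, and coloured points are the import genes. The shortest class, which holds 12 import genes, has a median of -0.68, drawn at its median length of 367.5 bases. Import genes with shorter coding sequences lie left of the line and band. Tomm70a and Timm29 lie above the band.

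The outer membrane translocase was compared with the inner membrane and intermembrane space translocases as sets. Of the 8 outer membrane genes other than Tomm20l, 5 were called lower and 1 higher, with a median log2FC of -0.74 (-0.87 with Tomm20l). Of 14 tested inner membrane and intermembrane space genes, 10 were called lower and 1 higher, with a median of -0.70. Mean log2 CPM of the 8 outer membrane genes other than Tomm20l went from 6.94 ± 0.05 (SD, n = 4) to 6.37 ± 0.19, a difference of -0.57. For the 14 inner membrane genes it went from 5.66 ± 0.07 to 4.997 ± 0.212, a difference of -0.67. No test was made between the sets, since genes of a complex are not replicates of a condition. The order of the medians depended on the scaling and on Tomm20l. With the coding length trend removed the outer median was -0.41, or -0.29 without Tomm20l, and the inner median was -0.32. With the exonic length trend removed it was -0.44, or -0.42 without Tomm20l, against -0.73 for the inner genes. DESeq2 on quantile-normalized counts gave -0.74, or -0.65 without Tomm20l, against -0.83.

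The genes ranked the aged libraries much alike. Among the 17 genes called lower, 24m replicate 1 had the highest 24m value in 16, all but Tomm20l, and 24m replicate 4 had the lowest in 16, all but Timm9. This order was not particular to the Timm and Tomm genes. Romo1, of the other import genes described below, read 114.6, 71.0, 72.6 and 56.4 CPM at 24m. Syt1, a neuronal marker that rose, had the reverse order, at 161.0, 261.8, 276.7 and 392.4 CPM. The share of all tested genes with either order is not given here. At 6m the order was less uniform: replicate 4 had the highest 6m value in 13 of the 17, and the lowest was replicate 2 in 11, replicate 3 in 5 and replicate 4 in 1. Replicate 1 of 24m was also the deepest library. Without it, 18 genes were called lower, Timm23 being added at a log2FC of -0.59. The share of all tested genes called lower without that library is not given here.

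**Figure D3:**
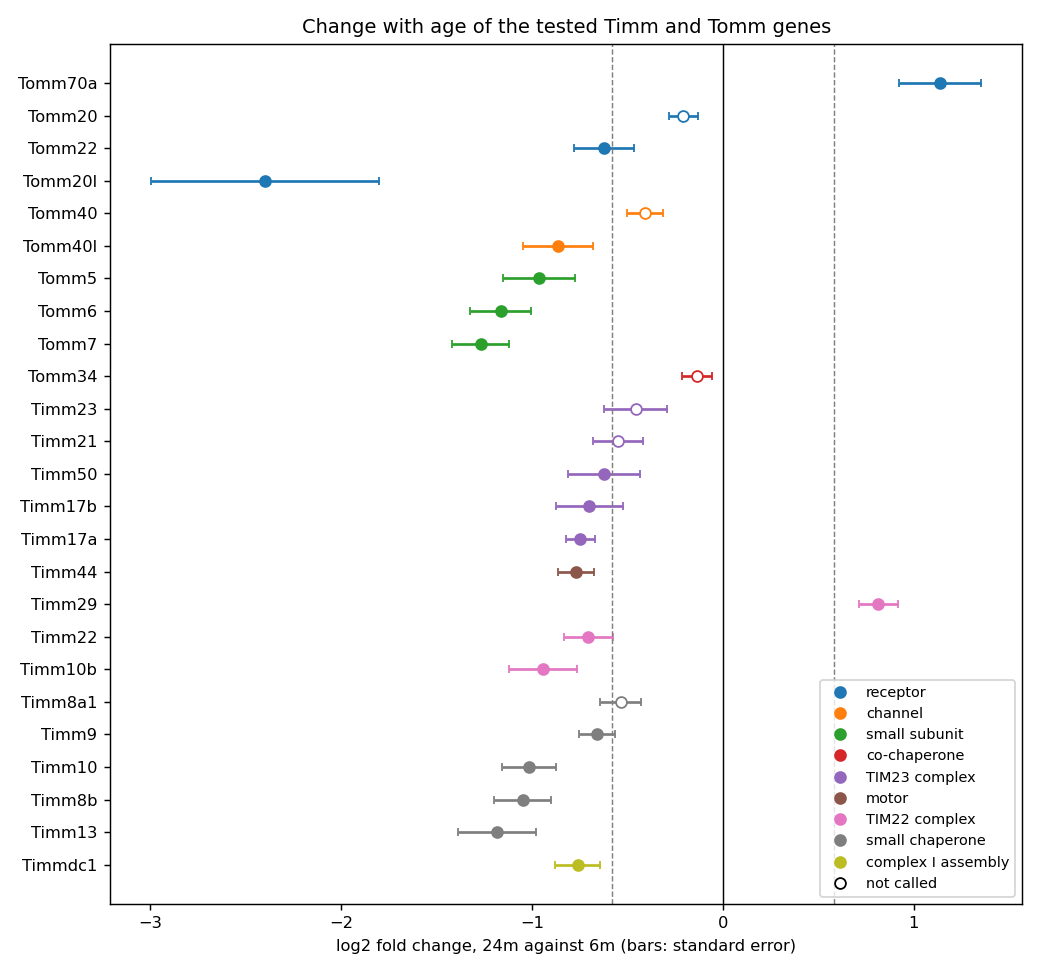
Log2FC at 24m against 6m of each tested gene with its standard error, coloured by role; open symbols were not called, and dashed lines mark -0.58 and 0.58. The small TOM subunits and most small Tim chaperones lie near or below -1, and Tomm70a and Timm29 stand alone on the right.

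The receptors of the outer membrane went in opposite directions. Tomm70a (ENSMUSG00000022752, GRCm39 chromosome 16, 56941792 to 56977068, + strand), the receptor for carrier precursors handed over by cytosolic chaperones, read 23.1, 30.0, 26.3 and 18.6 CPM at 6m and 33.9, 57.0, 54.8 and 69.5 CPM at 24m. The ages did not overlap, and 24m replicate 1 was the aged library nearest to the young. Tomm70a rose 2.20-fold, with a log2FC of 1.14 ± 0.22 (SE, adjusted p = 0.00152). With the transcript length trend removed the value was 0.48 and the call was lost, whereas it was kept with the exonic (0.70) or coding length trend (0.90) removed. Tomm20, the receptor for presequences, read 112.7, 110.7, 116.7 and 114.9 CPM at 6m and 106.7, 91.1, 95.9 and 100.3 CPM at 24m. Its values were lower in every aged animal, yet its log2FC of -0.21 ± 0.07 (adjusted p = 0.0333) stayed under the fold threshold. The direction of Tomm20 depended on the scaling. Its log2FC was 0.31 with the coding length trend removed, 0.0092 with library totals alone, and -0.69, called lower, with the transcript length trend removed. Tomm22, the central receptor that holds the complex together, read 119.1, 112.5, 110.4 and 121.7 CPM at 6m and 103.6, 70.01, 68.1 and 59.3 CPM at 24m. It fell at a log2FC of -0.62 ± 0.16 (adjusted p = 0.00624). That call was lost without 24m replicate 3 (-0.58) or without 24m replicate 4 (-0.52), under each length offset, with library totals alone (-0.42) and with DESeq2 on quantile-normalized counts (-0.56). Tomm20l, a paralog of Tomm20, was near the limit of counting at both ages, and its fitted value of -2.40 ± 0.60 (adjusted p = 0.00613) rests on 41 counts at 6m and 10 at 24m. It shares 322 exonic bases with Timm9 on the other strand, which read 17.0 CPM at 6m and 10.8 CPM at 24m on average.

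Both forms of the channel were abundant, and Tomm40l changed more than Tomm40. Tomm40, the barrel-shaped protein of the pore, read 189.8, 183.3, 189.2 and 206.9 CPM at 6m and 168.1, 137.5, 145.5 and 129.2 CPM at 24m. Its log2FC of -0.41 ± 0.09 (adjusted p = 0.00432) was under the fold threshold, although the ages did not overlap. Tomm40l (ENSMUSG00000005674, chromosome 1, 171043578 to 171050277, - strand), its paralog, read 247.7, 219.9, 222.8 and 284.6 CPM at 6m and 189.2, 125.3, 120.9 and 99.5 CPM at 24m. It fell at a log2FC of -0.87 ± 0.18 (adjusted p = 0.00267) and was called lower under all 24 alternatives tried. The gene shares 3501 exonic bases with Nr1i3 and 889 with Apoa2 on the other strand, which went from 8.59 to 5.10 CPM and from 4.29 to 1.91 CPM. Both neighbours read far below Tomm40l, but how reads in the shared bases were assigned is not given in the sources used here.

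The small TOM subunits, single-pass proteins that steady the complex, had the lowest log2FCs of the outer membrane set apart from Tomm20l. All 3 were called lower. Tomm7 (ENSMUSG00000028998, chromosome 5, 24043831 to 24049245, - strand) read 160.6, 145.0, 143.8 and 154.5 CPM at 6m and 83.4, 60.5, 57.5 and 49.1 CPM at 24m. Its log2FC was -1.27 ± 0.15 (adjusted p = 0.000129). Tomm6 (ENSMUSG00000033475, chromosome 17, 47968416 to 47999311, - strand) read 304.0, 243.5, 270.0 and 310.1 CPM at 6m and 166.5, 119.4, 120.6 and 96.4 CPM at 24m. Its log2FC was -1.17 ± 0.16 (adjusted p = 0.000277). Tomm5 read 89.0, 74.6, 74.9 and 94.2 CPM at 6m and 61.5, 38.6, 37.9 and 32.4 CPM at 24m, a log2FC of -0.96 ± 0.19 (adjusted p = 0.00173). For each of them the lowest young animal lay above the highest aged one. These are also the 3 genes of shortest coding length, 165, 222 and 168 bases, and with the coding length trend removed their log2FCs were -0.46, -0.42 and -0.17, none of them called. Tomm6 was the most abundant of the import genes per kilobase of transcript at both ages, at 386.7 ± 42.7 CPM per kilobase at 6m and 172.4 ± 40.3 at 24m (SD, n = 4). That value rests on a curated transcript length of 729 bases, where its exonic length is 6180 bases. Tomm6 also shares 859 exonic bases with Gm21981 on the same strand (20.3 CPM at 6m). Its level is thus uncertain where reads could be assigned to either.

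Tomm34, a cytosolic co-chaperone of precursors that is no subunit of the translocase, was the single tested gene that missed the adjusted p threshold. It read 101.1, 109.4, 108.9 and 121.9 CPM at 6m and 101.5, 103.4, 102.98 and 94.0 CPM at 24m. The ages overlapped, and the log2FC was -0.14 ± 0.08 (adjusted p = 0.166).

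Within the TIM23 complex 3 of 5 subunits were called lower. Timm23, which forms the complex with Timm17a or Timm17b, read 89.7, 86.6, 126.7 and 92.5 CPM at 6m and 94.2, 62.9, 62.1 and 68.7 CPM at 24m. The ages overlapped, since 24m replicate 1 reached the young level and 6m replicate 3 stood above its group, and the log2FC of -0.46 ± 0.17 (adjusted p = 0.0341) was not called. Timm17a read 95.2, 89.7, 92.5 and 100.5 CPM at 6m and 60.6, 54.1, 56.4 and 53.7 CPM at 24m, with little spread within either age. It fell at -0.75 ± 0.08 (adjusted p = 6.94e-05), the lowest adjusted p among the import genes. Timm17b, its X-linked paralog, read 50.3, 43.7, 45.9 and 53.4 CPM at 6m and 42.1, 27.7, 26.4 and 22.7 CPM at 24m, and fell at -0.70 ± 0.18 (adjusted p = 0.00652). Timm50, the receptor on the inner membrane, read 98.0, 84.2, 89.5 and 110.8 CPM at 6m and 89.2, 57.3, 55.9 and 45.8 CPM at 24m. It was called lower at -0.62 ± 0.19 (adjusted p = 0.0158) although 24m replicate 1 lay within the young range. The call of Timm50 was lost when 6m replicate 4 (-0.55), 24m replicate 3 (-0.58) or 24m replicate 4 (-0.50) was left out. It was also lost with a GC trend removed (-0.48), with DESeq2 on quantile-normalized counts (-0.57), with the exonic (-0.39) or transcript length trend removed (-0.17) and with library totals alone (-0.42). Timm21, which links TIM23 to TOM, was the least abundant of the 5, between 4.81 and 6.82 CPM at 6m and between 3.79 and 4.29 CPM at 24m. Its log2FC of -0.55 ± 0.13 (adjusted p = 0.00474) was short of the fold threshold, which it passed with DESeq2 on quantile-normalized counts (-0.88), with a GC trend removed (-0.81), with the exonic length and GC trends removed (-0.60), without 6m replicate 4 (-0.63) and without 24m replicate 2 (-0.59).

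Timm44, which tethers the import motor to the channel, fell with little spread between animals. It read 52.8, 49.2, 54.5 and 56.7 CPM at 6m and 35.5, 31.2, 30.7 and 27.7 CPM at 24m, a log2FC of -0.77 ± 0.10 (adjusted p = 0.000173). With the coding length trend removed the value was -0.89 and with the exonic length trend removed -0.69, both called, but the call was lost with the transcript length trend removed (-0.41) and with library totals alone (-0.55). Its coding length of 1356 bases was the second longest among the import genes, after the 1833 bases of Tomm70a.

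In the TIM22 complex the subunits diverged. Timm22, the channel of the carrier translocase, read 51.8, 47.7, 47.6 and 61.9 CPM at 6m and 38.8, 31.1, 30.6 and 27.7 CPM at 24m, and fell at -0.71 ± 0.13 (adjusted p = 0.00118). Timm10b, the small chaperone bound to this complex, read 88.1, 78.4, 77.9 and 87.5 CPM at 6m and 61.8, 40.4, 37.4 and 32.7 CPM at 24m, and fell at -0.95 ± 0.18 (adjusted p = 0.00146). Timm29 (ENSMUSG00000048429, chromosome 9, 21504018 to 21507266, + strand), a subunit found in animals but not in yeast, read 24.0, 32.3, 28.7 and 28.5 CPM at 6m and 51.0, 45.6, 51.4 and 51.2 CPM at 24m. The aged values were all above the young ones. Timm29 rose 1.76-fold, with a log2FC of 0.81 ± 0.10 (adjusted p = 0.000186), and stayed called under all 24 alternatives, between 0.70 and 1.07. Timm10b shares 376 exonic bases with Gm45799 on the same strand, a predicted gene that went from 75.01 to 39.8 CPM (log2FC -0.92), so the level of Timm10b is uncertain where reads could be assigned to either. Timm22 shares 1710 exonic bases with Abr on the other strand, which went from 120.3 to 348.3 CPM (log2FC 1.53).

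The small chaperones of the intermembrane space, which work as rings of Timm9 with Timm10 or of Timm8 with Timm13, were mostly lower at 24m. Of 5 tested, 4 were called lower and Timm8a1 passed the adjusted p threshold alone. Timm13 (ENSMUSG00000020219, chromosome 10, 80734530 to 80736803, - strand) read 291.4, 230.6, 248.3 and 295.5 CPM at 6m and 174.3, 103.6, 106.3 and 84.5 CPM at 24m, a log2FC of -1.19 ± 0.20 (adjusted p = 0.000917). Timm8b read 186.0, 169.1, 171.3 and 191.6 CPM at 6m and 117.3, 78.4, 81.3 and 70.1 CPM at 24m, a log2FC of -1.05 ± 0.15 (adjusted p = 0.000346). Timm10 read 74.5, 67.6, 69.5 and 79.3 CPM at 6m and 46.5, 34.5, 34.7 and 28.3 CPM at 24m, a log2FC of -1.01 ± 0.14 (adjusted p = 0.000304). In these 3 genes the mean level of the aged animals was 0.44, 0.48 and 0.49 times that of the young. Timm9, the partner of Timm10, read 16.9, 16.5, 17.997 and 16.5 CPM at 6m and 11.6, 11.4, 9.92 and 10.1 CPM at 24m, a log2FC of -0.66 ± 0.10 (adjusted p = 0.000369). Timm8a1 read 8.02, 7.27, 7.73 and 8.504 CPM at 6m and 5.32, 5.90, 5.52 and 4.998 CPM at 24m, a log2FC of -0.54 ± 0.11 (adjusted p = 0.00193). Differences in log2FC between partners of a ring were not tested. With the coding length trend removed no small chaperone was called, and the values ran from -0.54 for Timm13 to 0.15 for Timm8a1. Timm8a1 varied with the scaling, being called lower with the transcript (-1.11) or exonic length trend removed (-0.63), with a GC trend removed (-0.79) and with DESeq2 on quantile-normalized counts (-0.85).

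Timmdc1 bears a related symbol but is an assembly factor of respiratory complex I. It read 49.7, 46.8, 48.3 and 56.8 CPM at 6m and 36.2, 28.2, 29.0 and 25.8 CPM at 24m, with no overlap. It fell at -0.76 ± 0.12 (adjusted p = 0.00053).

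**Figure D4:**
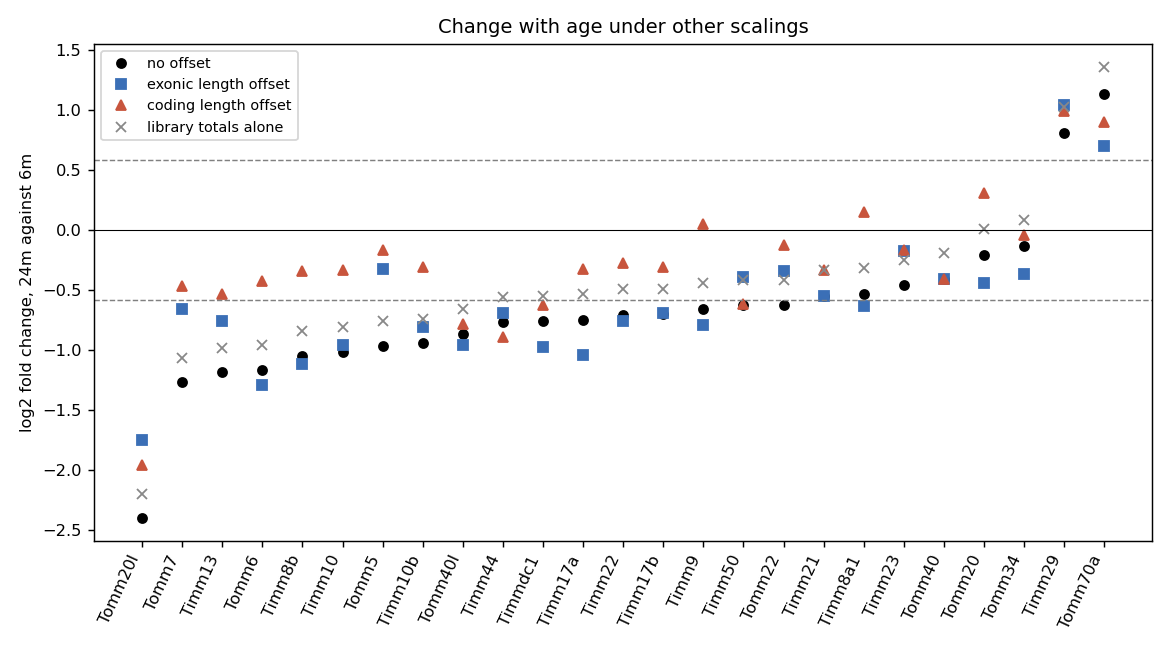
Log2FC of each tested gene at 24m against 6m without an offset (black circles), with the exonic (blue squares) or coding length (red triangles) trend removed, and scaled by library totals alone (grey crosses); dashed lines mark -0.58 and 0.58. Red triangles of the small TOM subunits and small Tim chaperones lie above their black circles, between -0.54 and 0.15, while Timm29 lies above 0.58 throughout.

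Paralogs that can take the same place in a complex were compared within each library, where scaling between libraries cancels. The log2 ratio of Tomm40 to Tomm40l was -0.38, -0.26, -0.24 and -0.46 at 6m and -0.17, 0.13, 0.27 and 0.38 at 24m. The aged values all lay above the young ones, and the means differed by 0.49 (two-sided exact permutation p = 0.0286, the smallest that 4 against 4 can give, or 0.0429 adjusted over the 3 ratios). The log2 ratio of Timm8a1 to Timm8b was -4.53, -4.53, -4.47 and -4.49 at 6m and -4.46, -3.73, -3.87 and -3.80 at 24m. The difference was 0.54 (exact permutation p = 0.0286, adjusted p = 0.0429), and 24m replicate 1 differed from the highest young value by less than the spread of the young. The log2 ratio of Timm17a to Timm17b was 0.97 ± 0.06 at 6m and 0.96 ± 0.31 at 24m (SD, n = 4 each). The 24m mean minus the 6m mean was -0.01 (exact permutation p = 0.971). Here 24m replicate 1 had the lowest ratio, 0.53, and the other aged libraries ran from 0.96 to 1.24. Scaling between libraries cancels in these ratios, but a length trend that differs between libraries does not. With the exonic, transcript or coding length trend removed, the Tomm40 to Tomm40l difference was 0.58, 1.37 and 0.39, with adjusted exact permutation p of 0.0429, 0.0429 and 0.0857. The Timm8a1 to Timm8b difference was 0.51, 0.078 and 0.49, with adjusted p of 0.0571, 0.486 and 0.129, so it passed the threshold under none of them. The Timm17a to Timm17b difference became -0.32 and -0.41 with the exonic or transcript length trend removed (adjusted exact permutation p = 0.0429 for each) and stayed at -0.01 with the coding length trend removed (adjusted p = 1). The Tomm40 to Tomm40l ratio was thus higher at 24m in all 4 versions, and past the threshold in 3 of them. For both ratios that differed without an offset, leaving out any 1 of the 6m libraries gave an adjusted exact permutation p of 0.0857, while the differences stayed at 0.45 to 0.52 for Tomm40 to Tomm40l and 0.53 to 0.55 for Timm8a1 to Timm8b and the ages still did not overlap.

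**Figure D5:**
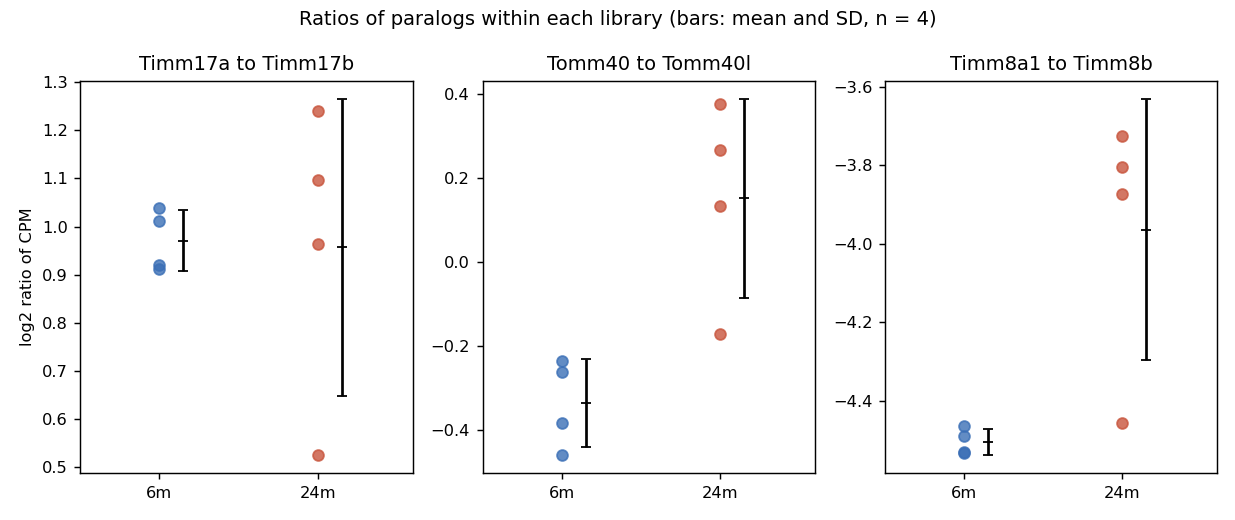
Log2 ratio of CPM of 3 pairs of paralogs in each library at 6m (blue) and 24m (red), with the mean and SD of 4 libraries beside the points. The aged points lie above the young ones for Tomm40 to Tomm40l and for Timm8a1 to Timm8b, and straddle them for Timm17a to Timm17b.

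For some of these genes the genome holds near-identical copies. Coding copies of at least 95% identity over at least 80% of the coding length were found elsewhere in GRCm39 for 5 of the 26 genes. Timm23 had 5 such copies, the least alike of them at 95.4% identity, Tomm7 had 2, and Timm17a, Timm8a1 and Tomm20 had 1 each. The copy of Timm8a1 was identical over the whole coding sequence. How reads that fit several places were counted is not given in the sources used here, and whether reads can be told apart was not tested, so the levels of these 5 genes are uncertain, more so where a copy is identical (Timm8a1 and 3 of the copies of Timm23). The genes annotated at these copies are not listed in the count table, so it holds no levels for them. In addition, 15 of the 26 genes share exonic bases with another gene of the table, 2 of them, Tomm6 and Timm10b, on the same strand.

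Sequence around the transcription starts was read for motifs of factors known to act on nuclear genes for mitochondria. RefSeq windows on GRCm38.p6, from 250 bases before to 50 bases after the start, were matched by symbol for 23 of the 26 genes, all but Tomm7, Tomm40l and Timm21. Both strands were searched for 4 motifs: CCGGAAGT, a site of ETS factors such as GABPA (NRF2), GCGCATGC, the core of the NRF1 site, AAGATGGC, the core of the YY1 site, and CAAGGTCA, a site of the orphan receptor ERRA. In these windows no match overlapped another, and a match is a description and not a bound site. CCGGAAGT or its reverse complement was present in 7 of 23 import genes (30.4%), against 6.34% of the 15319 protein-coding genes with a window. The 7 were Timm10, Timm10b, Timm23, Timm29, Timm8a2, Timmdc1 and Tomm70a, so the motif stood by genes that fell and by both genes that rose. The NRF1 core was found in Timm13 alone (4.35% of the import genes, 4.40% of all), the YY1 core in Timm50 alone (4.35% and 3.82%) and the ERRA site in Timm8b alone (4.35% and 1.49%).

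The 250 bases before the start are shown for the 2 genes that rose and for Timm13, the gene with a window and over 1 CPM that had the lowest log2FC, to place these motifs. Each reads 5′ to 3′ along the gene, with motif matches in capitals: Tomm70a at chr16:57121464-57121713 (+ strand), Timm29 at chr9:21592472-21592721 (+ strand) and Timm13 at chr10:80900970-80901219 (- strand), all GRCm38.p6.
Tomm70a: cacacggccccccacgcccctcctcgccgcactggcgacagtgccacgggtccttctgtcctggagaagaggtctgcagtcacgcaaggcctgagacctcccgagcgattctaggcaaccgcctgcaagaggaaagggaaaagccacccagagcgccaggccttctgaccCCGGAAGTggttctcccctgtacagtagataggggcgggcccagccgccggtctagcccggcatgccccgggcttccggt
Timm29: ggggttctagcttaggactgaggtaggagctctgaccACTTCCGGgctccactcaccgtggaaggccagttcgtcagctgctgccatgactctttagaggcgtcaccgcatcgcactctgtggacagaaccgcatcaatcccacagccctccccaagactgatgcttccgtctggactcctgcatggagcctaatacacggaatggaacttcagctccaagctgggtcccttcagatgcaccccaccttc
Timm13: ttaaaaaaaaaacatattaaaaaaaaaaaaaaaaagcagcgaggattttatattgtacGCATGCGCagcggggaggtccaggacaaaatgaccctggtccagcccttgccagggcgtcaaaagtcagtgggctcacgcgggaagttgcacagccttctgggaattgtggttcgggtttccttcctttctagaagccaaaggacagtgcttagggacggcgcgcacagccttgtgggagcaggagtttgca
In Tomm70a and Timm29 the capitals are the ETS motif, which begins 80 and 213 bases before the start and reads on opposite strands, and in Timm13 they are the NRF1 core, 192 bases before the start.

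The ETS motif of the genes that fell, or that passed the adjusted p threshold alone, is shown with up to 10 bases on either side, since it has the same 8 letters as in the genes that rose. These sites lie at chr2:84827027-84827054 (Timm10, + strand), chr7:105640470-105640494 (Timm10b, + strand), chr14:32201922-32201949 (Timm23, - strand), and chr16:38522791-38522818 and chr16:38522654-38522681 (Timmdc1, - strand) of GRCm38.p6.
Timm10: agacttccttCCGGAAGTgacccacgtg
Timm10b: gtgagagtttACTTCCGGggcgact
Timm23: cgcgcttcccACTTCCGGgccgcacaca
Timmdc1, distal: ccgccaactcACTTCCGGggctcgactg
Timmdc1, proximal: ccgagagcttCCGGAAGTgagccggctg
The site begins 48 bases before the start in Timm23, 145 and 8 bases before it in Timmdc1, and 16 and 35 bases after the start base in Timm10 and Timm10b. Its position and strand thus varied among genes of the same direction.

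Beyond the Timm and Tomm genes, 32 other genes of protein import were listed by role, and all were tested. Of these, 8 were called lower and 2 higher, beside 18.3% and 25.3% of all tested genes. By adjusted p alone 22 were lower and 4 higher, beside 29.9% and 32.7%. Their median log2FC was -0.41. Chchd4, the oxidoreductase that traps small Tim proteins by disulfide bonds, lay on the threshold at -0.58 ± 0.08 and was not called. With the exonic length trend removed 15 were called lower (17.2% of all tested genes), and with the coding length trend removed 2 (16.8%).

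Among the lowest values were 3 partners of the import motor and of TIM23 and a matrix chaperone. Romo1, a small inner membrane protein of the TIM23 complex, went from 195.1 ± 18.8 to 78.6 ± 25.03 CPM (SD, n = 4 each), a log2FC of -1.31 ± 0.19 (adjusted p = 0.000419). Hspe1, the matrix co-chaperonin, fell at -1.05 ± 0.15 (adjusted p = 0.000379). Pam16, which regulates the motor, fell at -0.98 ± 0.14 (adjusted p = 0.000289), and Dnajc15, a J protein of the motor, at -0.86 ± 0.12 (adjusted p = 0.000339). Of the 7 motor and TIM23 partners, 4 were called lower and none higher, the other one called being Dnajc19, a J protein of the motor (-0.71). With the coding length trend removed, Romo1 was still called (-0.60), but the calls of Hspe1 (-0.40), Pam16 (-0.42), Dnajc15 (-0.37) and Dnajc19 (-0.12) were lost. With the transcript length trend removed Dnajc15 was called (-1.47), and the values of Romo1 (-0.44), Hspe1 (-0.23), Pam16 (-0.10) and Dnajc19 (-0.08) were not.

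The 2 genes called higher were of low abundance. Mtx3, a metaxin of the sorting and assembly machinery, went from 0.811 ± 0.205 to 3.27 ± 0.854 CPM, a log2FC of 2.01 ± 0.24 (adjusted p = 0.000148). Xpnpep3, a mitochondrial aminopeptidase, went from 0.862 ± 0.103 to 2.98 ± 0.685 CPM, a log2FC of 1.79 ± 0.19 (adjusted p = 8.85e-05). Hspa9, the mitochondrial Hsp70 that drives the motor, read 103.7, 121.2, 113.1 and 101.2 CPM at 6m and 120.3, 160.4, 165.6 and 205.7 CPM at 24m. With a log2FC of 0.57 ± 0.15 (adjusted p = 0.00726) it was just under the threshold, and 24m replicate 1 lay within the young range. Agk, a kinase that is also a TIM22 subunit, had 0.23 ± 0.09 (adjusted p = 0.0422). With TMM scaling and no length offset, the motor thus held Timm44, Pam16, Dnajc15 and Dnajc19 called lower beside an Hsp70 with a positive value. With library totals alone, Timm44 (-0.55) and Dnajc19 (-0.49) were not called.

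Marker levels of cell types moved between the ages as well. The summed level of 6 neuronal markers was 2343 to 2890 CPM at 6m and 3133 to 3542 CPM at 24m (2 called higher). Those called were Syt1 (93.0 to 273.0 CPM on average) and Gad1 (116.1 to 259.9 CPM). Slc17a7 and Snap25 made up most of the sum, while Rbfox3 (272.0 to 213.4 CPM on average) and Stmn2 (192.4 to 172.7 CPM) were lower in every aged library than in any young one, though neither was called. The sum of 4 astrocyte markers was 393.8 to 446.9 CPM at 6m and 814.9 to 982.6 CPM at 24m (3 called higher), while the remaining one, Aldh1l1, was not called (169.6 to 141.5 CPM on average). For 4 microglial markers it was 117.8 to 126.0 and 151.3 to 178.3 CPM (2 called higher), for 4 oligodendrocyte markers 2555 to 3286 and 2777 to 3224 CPM (1 called higher). For 4 endothelial markers it was 33.9 to 51.7 and 22.8 to 35.2 CPM (1 called higher, 1 lower), Cldn5 making up most of the sum (31.7 to 15.2 CPM on average, called lower) and Flt1 being called higher (2.22 to 5.27 CPM). For 4 choroid plexus markers it was 1768 to 3188 and 805.7 to 2241 CPM, nearly all of it Ttr (2452 to 1416 CPM on average, not called), while Kl (4.27 to 12.3 CPM) and Aqp1 (1.98 to 3.39 CPM) were called higher and Folr1 (19.3 to 10.7 CPM) was not called. Neuronal markers were thus present at both ages, as the brain label requires. Of 4 muscle and liver genes, which a brain should lack, Alb had too few counts to be tested and the other 3 were called lower, among them Apoa2, which shares exonic bases with the far more abundant Tomm40l as given above. The sum of the 4 went from between 25.3 and 27.4 CPM to between 12.2 and 16.7 CPM, and no marker was at 0 throughout. Transcripts of the 13 genes of mitochondrial DNA made up 5.26% to 6.52% of all counts at 6m and 3.18% to 3.69% at 24m. The part of these shifts in the values of the import genes was not tested.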

How the data were processed

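Transcripts with a poly(A) tail were sequenced from 8 brain samples, which the labels place in groups of 4 (6m) and 4 (24m). Per the methods of the study, the authors made directional libraries and trimmed adapters with Trim Galore 0.4.11. They aligned reads to GRCm39 (Ensembl release of the study) with HISAT2 and counted them per gene with featureCounts. The strand setting is not given in the sources used here. The deposited values are whole-number counts, not normalized, with no replicates pooled. Animals were separate, so p-values measure the spread between animals.

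A gene was tested if at least 4 libraries held more than 5 of its counts, which kept 16730 genes. Under R 4.3.3, edgeR 4.0.16 fitted a quasi-likelihood model to age alone after TMM scaling, for all genes together, and calls used the limits of the study (adjusted p 0.05, log2 fold change 0.58 in size). Log2 CPM used a prior count of 2. Near-identical copies were searched in GRCm39 with blastn. Symbols, lengths and overlaps came from GENCODE vM39, in which 149 listed identifiers had no match. Curated transcripts are those with a CCDS tag, and length trends were removed as smoothed offsets per library. Paralog ratios were tested by an exact permutation of the ages among libraries (70 ways). Scripts were tested on simulated data. The alternatives were other scaling, filters, DESeq2 1.42.0 (on the counts and on rounded quantile-normalized counts), limma-voom (limma 3.58.1), libraries left out and the replicate number as a block; the coding and transcript length offsets, and all length offsets for the ratios, were added after the data were seen. The Timm and Tomm genes, the lists and the tests were chosen with earlier results of these data known. All Timm and Tomm genes are named. Of the other import genes, the 4 lowest and 4 highest by log2 fold change are named. Dnajc19 was added as the remaining motor partner called lower, although Immp1l (-0.78) was lower still. Chchd4, at the threshold, was singled out after its values were seen.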

Additional observations from a re-analysis of the deposited data

Results flagged for a closer look

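In 50 groups of 4 libraries (25 tested genes at 2 ages), the gap between an extreme library and its nearest neighbour was set against the range of the group, as in Dixon's test at its 95% critical value. Chance alone passes that value in about 1 of 20 groups, and 2 of the 50 passed. Timm23 read 126.7 CPM in 6m replicate 3, against 86.6 to 92.5 CPM in the other 6m libraries. Timm29 read 45.6 CPM in 24m replicate 2, against 51.0 to 51.4 CPM in the other 24m libraries, which is still above all 6m libraries. The causes were not tested.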

How the results depend on the processing

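Of 595 values of single Timm and Tomm genes under alternatives, 524 kept their direction and their side of the thresholds, 45 lost the call, 18 gained it and 8 changed sign. RLE or upper-quartile factors, limma-voom, DESeq2, GC content and other filters gave 16 to 18 import genes called lower. The shares of all tested genes called under these settings are not given here. Adjusted p alone gave 22, beside 29.9% of all tested genes. Among the 24 tested genes other than Tomm20l, the GC offset lost Timm50 and gained Timm21 and Timm8a1. DESeq2 on quantile-normalized counts lost Timm50 and Tomm22 and gained the same pair. Scaling by library totals alone gave 9 of the import genes called lower and 4 of the other import genes, and turned Tomm20 (0.0092) and Tomm34 (0.084) positive. Without the fold threshold, 22 other import genes were called lower and 4 higher. The exonic length offset gave 15 other import genes lower and an outer membrane median of -0.44; with GC content added these were 14 and -0.47. The coding length offset gave 5 import genes and 2 other import genes lower, medians of -0.41 (outer) and -0.32 (inner), and positive values for Tomm20 (0.31), Timm8a1 (0.15) and Timm9 (0.049). The transcript length offset gave 11 import genes lower, 1 higher, 4 other import genes lower and an outer median of -0.34, with positive values for Tomm40 (0.024), Tomm34 (0.10) and Timm23 (0.16). Of the ratios, Tomm40 to Tomm40l gave 0.39 (coding), Timm8a1 to Timm8b 0.51 (exonic), 0.078 (transcript) and 0.49 (coding), all missing the threshold, and Timm17a to Timm17b -0.32 (exonic) and -0.41 (transcript), both past it. Why the length definitions differ was not tested.

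With each library left out in turn, 15 to 18 import genes were called lower and 2 higher, and 6 to 12 other import genes lower and 2 to 3 higher. The shares of all tested genes called in these runs are not given here, so the counts lack a background. The medians ran from -1.06 to -0.69 (outer) and from -0.80 to -0.63 (inner). Tomm20l could not be tested without any one of the 6m libraries, so these outer medians are of 8 or 9 genes. Without Tomm20l, 14 to 17 of 24 genes were called lower and the outer median ran from -0.93 to -0.64. The differences in log2 ratio ran from 0.41 to 0.59 for Tomm40 to Tomm40l and from 0.46 to 0.70 for Timm8a1 to Timm8b, with adjusted exact permutation p of 0.0429 to 0.0857, and from -0.11 to 0.13 for Timm17a to Timm17b, positive without 6m replicate 2 (0.01) or 24m replicate 1 (0.13).

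Samples of the same replicate number did not clearly deviate together (correlations of -0.35 to 0.27). The labels name no pairing by number, and these correlations alone cannot exclude one. With the replicate number as a block, the same 17 import genes were called lower and 2 higher, and 10 other import genes lower. With the block and the exonic length offset 15 other import genes were lower and the outer median was -0.44. The shares of all tested genes called with the block are not given here. Paired by number, the ratio differences were unchanged in size, with an exact sign-flip p of 0.125 for Tomm40 to Tomm40l and for Timm8a1 to Timm8b, the smallest that 4 pairs can give.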
